A study of Homo sapiens with 16 samples.

Results

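The 10 genes SOX2, SOX4, SOX5, SOX6, SOX9, SOX10, SOX11, SOX14, SOX17 and SOX21 were followed in chromatin immunoprecipitation (ChIP) libraries from human fibroblasts, with SOX11 set against the other 9. All windows of the table of transcription start sites that carried 1 of these symbols were taken, and each alternative start was kept apart. This gave 53 distinct windows among 237274 in the table, which lists 40113 symbols. A window spans 2000 bp centred on an annotated start, and windows of neighbouring starts of 1 gene share reads. SOX11 was chosen by its ChIP over input and its ChIP counts across serum and genotype in these same libraries, so its values are given as a description. Counts of called windows can include SOX11, and its calls are not read as results. The other 9 genes stand beside it as relatives in the family.

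The cells were BJ-5ta, a human foreskin fibroblast line immortalised with hTERT. Wild type cells were compared with ΔLEO1 cells, in which CRISPR/Cas9 had been aimed at exons 1 and 2 of LEO1, a subunit of the PAF1 complex that travels with RNA polymerase II. The ΔLEO1 cells came from 1 clone, so an effect of the lost gene and a trait of that clone cannot be told apart. Each genotype was grown in medium with 10% serum, where the cells divide, or starved of serum (0.1%) for 10 days, which drives fibroblasts out of the cell cycle. For each of these 4 conditions there were 2 ChIP libraries and 2 input libraries, lettered A and B, 16 in all. The labels name the precipitated material only as H3, and the study's methods name the antibody as one against H3K9me2, dimethylation of lysine 9 of histone H3, a mark of silent chromatin. The labels do not say that A and B were separate cultures, so p-values measure only the spread between libraries.

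SOX proteins are transcription factors that bind DNA through an HMG box related to that of SRY. The SoxB group (SOX2, SOX14 and SOX21 here) acts in early embryos and in neural progenitors, where SOX2 keeps cells undifferentiated and SOX14 and SOX21 act mostly as repressors. The SoxC factors SOX4 and SOX11 act in neurons, limb and heart as they form, the SoxD factors SOX5 and SOX6 work together in cartilage, the SoxE factors SOX9 and SOX10 direct cartilage and neural crest fates, and SOX17, a SoxF factor, marks endoderm and endothelium. H3K9me2 is laid down mainly by the EHMT1 and EHMT2 methyltransferases over broad, poorly transcribed domains and is sparse at active promoters.

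Promoter sequences are shown first, since the starts of these genes differ in base composition as well as in ChIP. RefSeq promoters on GRCh38.p14 were matched for 5 of the 10 genes, SOX2, SOX4, SOX5, SOX6 and SOX21. Each stretch below holds the 250 bases before a start, read 5′ to 3′ on the strand of the gene, with CG dinucleotides in capitals. CG is its own reverse complement, so 1 strand covers both, and 93.9% of the 35116 promoters in the RefSeq table hold at least 1. SOX4 is shown for its low mean log2 ChIP over input in wild type in 10% serum and in ΔLEO1 in 0.1% serum. It was the lowest there among principal windows, those that most listed transcripts of a gene share. Another SOX6 window was lower, at -2.44 and -3.12. SOX2 and SOX21 are shown as 2 SoxB promoters whose mean ChIP in wild type in 10% serum was above the input, and SOX5 and SOX6 are shown for starts of 1 gene that differ. The stretches lie at chr6:21593501-21593750 (SOX4, plus strand), chr3:181711675-181711924 (SOX2, plus), chr13:94712546-94712795 (SOX21, minus), chr12:24562492-24562741 (most upstream start of SOX5, minus), chr11:16738478-16738727 (an upstream start of SOX6, minus) and chr11:16402864-16403113 (an internal start of SOX6, minus).
SOX4: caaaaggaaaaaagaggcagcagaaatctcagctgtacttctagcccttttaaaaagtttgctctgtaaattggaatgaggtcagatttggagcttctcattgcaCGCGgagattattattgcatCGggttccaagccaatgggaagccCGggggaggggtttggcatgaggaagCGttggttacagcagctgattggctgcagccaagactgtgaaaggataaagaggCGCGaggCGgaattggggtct
SOX2: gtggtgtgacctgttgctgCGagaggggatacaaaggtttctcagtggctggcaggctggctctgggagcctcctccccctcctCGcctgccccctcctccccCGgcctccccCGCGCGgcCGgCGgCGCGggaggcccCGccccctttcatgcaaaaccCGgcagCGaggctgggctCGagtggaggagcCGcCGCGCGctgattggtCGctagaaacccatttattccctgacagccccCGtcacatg
SOX21: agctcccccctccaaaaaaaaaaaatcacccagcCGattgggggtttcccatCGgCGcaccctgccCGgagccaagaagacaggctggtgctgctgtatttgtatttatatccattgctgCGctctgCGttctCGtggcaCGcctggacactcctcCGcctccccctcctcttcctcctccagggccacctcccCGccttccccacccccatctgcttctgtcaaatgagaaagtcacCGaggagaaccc
SOX5, most upstream: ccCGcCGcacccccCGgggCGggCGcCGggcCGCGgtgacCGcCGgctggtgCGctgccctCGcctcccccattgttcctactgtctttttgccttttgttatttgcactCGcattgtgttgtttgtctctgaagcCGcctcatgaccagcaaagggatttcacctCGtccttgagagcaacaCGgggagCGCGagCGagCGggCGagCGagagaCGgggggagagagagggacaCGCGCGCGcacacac
SOX6, upstream: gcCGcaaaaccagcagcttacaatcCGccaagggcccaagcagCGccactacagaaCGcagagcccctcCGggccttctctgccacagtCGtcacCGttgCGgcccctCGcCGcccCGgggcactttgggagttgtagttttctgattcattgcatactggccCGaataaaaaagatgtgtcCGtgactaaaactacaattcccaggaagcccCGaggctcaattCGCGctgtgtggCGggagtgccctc
SOX6, internal: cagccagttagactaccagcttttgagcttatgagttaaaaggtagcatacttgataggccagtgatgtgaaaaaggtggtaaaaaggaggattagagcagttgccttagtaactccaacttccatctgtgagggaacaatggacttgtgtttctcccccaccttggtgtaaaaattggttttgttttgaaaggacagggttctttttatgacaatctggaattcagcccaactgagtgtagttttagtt

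The SOX4 stretch held 8 CG and was 48.8% G or C, against a median of 11 CG and 58% over the table. SOX2 held 20 CG, SOX21 11 and the most upstream SOX5 start 27. The upstream SOX6 start held 17 CG and the internal one 0, so the same gene has a CG-rich and a CG-free start. No stretch is shown for SOX9, SOX10, SOX11, SOX14 and SOX17.

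Reads over the start windows numbered 2153836 to 3696942 in 7 ChIP libraries and 3267811 to 9238282 in the 8 inputs. The ΔLEO1 ChIP library A from 10% serum held 54 reads, with 0 over SOX11, and was left out, so that condition rests on 1 library, assumed in the tests to vary like the others. Pearson correlations between the 2 libraries of a condition were 0.703 in wild type in 10% serum, 0.638 in wild type in 0.1% serum and 0.599 in ΔLEO1 in 0.1% serum, over the log2 CPM of 108916 windows. CPM are counts per 1000000 reads over the start windows, scaled by TMM, which sets most windows equal between libraries. Input reads over the LEO1 start were present in both genotypes, at 3.78 to 5.53 CPM in wild type and 2.82 to 5.01 CPM in ΔLEO1 libraries, and these windows do not check the knockout. ChIP reads do not measure expression, so fibroblast identity could not be checked. At the starts of 12 fibroblast genes, such as VIM, which encodes vimentin, the median log2 ChIP over input was -1.87 in wild type in 10% serum, which gives a scale for low ChIP. VIM was lowest at -3.06 and COL6A1 highest at 1.09. The COL6A1 window, chr21:46000305-46002305, lies downstream of the first listed start window of the gene, chr21:45980770-45982770. The COL3A1 window used also lies downstream of the first one listed.

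ChIP over input is given below as the log2 of a library's CPM over the mean CPM of both inputs of its condition, with 0.5 CPM added to each. Over 205536 windows with enough input reads its median was -0.20 in wild type in 10% serum, -0.13 in wild type in 0.1% serum, -0.18 in ΔLEO1 in 10% serum and -0.07 in ΔLEO1 in 0.1% serum. This scaling sets the bulk of windows equal and cannot show a shift of all of them.

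SOX11 carried the highest ChIP of the 10 genes in wild type cells in 10% serum, and lower values in the other 3 conditions. Its only window lies on the plus strand of chr2:5691384-5693384 (hg38), with 1 kb on either side of the start of a gene that has a single exon. The 2 wild type libraries from 10% serum held 44 and 52 reads there, which is 16.8 CPM in each (95% Poisson intervals 12.2 to 22.6 and 12.5 to 22.0). The 2 wild type libraries from 0.1% serum held 22 and 14 reads, or 6.65 and 5.15 CPM (4.16 to 10.1 and 2.81 to 8.64). Neither interval reached those of 10% serum. The ΔLEO1 library from 10% serum held 12 reads, or 5.62 CPM (2.90 to 9.81). In 0.1% serum the ΔLEO1 libraries held 16 and 7 reads, or 4.26 and 2.77 CPM (2.44 to 6.92 and 1.11 to 5.70). The intervals of the wild type libraries from 10% serum did not overlap those of the other 5 ChIP libraries, which overlapped each other. SOX11 was chosen by these counts, so this is a description and no test. Among all distinct windows tested, 19.3% had lower CPM in both wild type libraries of 0.1% serum than in either of 10% serum. The intervals cover counting error only.

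**Figure D1:**
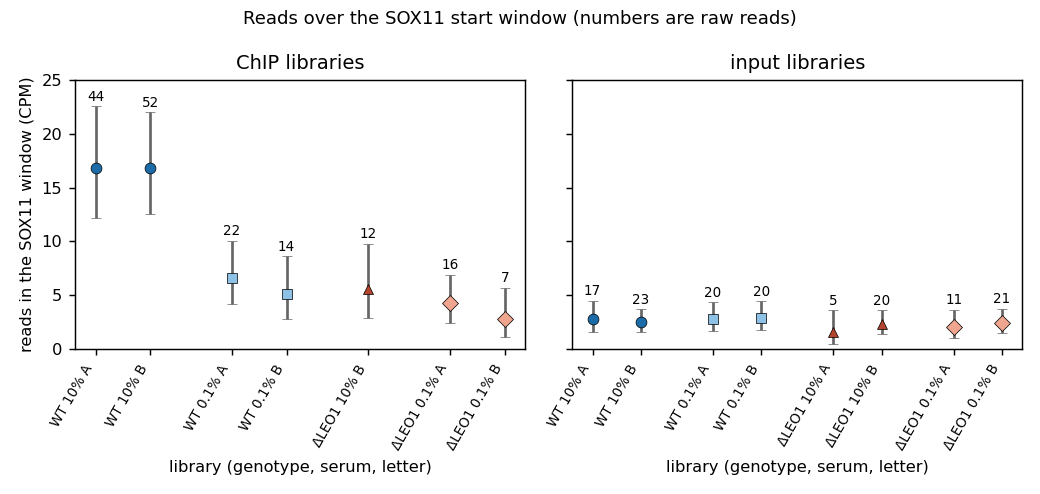
Reads over the SOX11 start window in the 7 ChIP libraries (left) and the 8 inputs (right), in CPM, with 95% Poisson intervals as bars and the raw reads above them. Both wild type ChIP libraries from 10% serum sit at 16.8 CPM, the other 5 ChIP libraries between 2.77 and 6.65 CPM, and the inputs between 1.57 and 2.90 CPM.

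The inputs did not follow this pattern. Reads over the SOX11 window were 17 and 23 in the wild type inputs from 10% serum, 20 and 20 in those from 0.1% serum, 5 and 20 in the ΔLEO1 inputs from 10% serum, and 11 and 21 in those from 0.1% serum. In CPM the inputs ranged from 1.57 to 2.90, and the lowest was the shallowest library, the ΔLEO1 input A from 10% serum.

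Set over the inputs, SOX11 stood at a log2 ChIP over input of 2.46 and 2.46 in wild type in 10% serum, a mean of 2.46 ± 0.00148 (SD, n = 2) and 5.49-fold on the linear scale. This lay at percentile 99.97 of all windows with enough input reads. In wild type in 0.1% serum the values were 1.09 and 0.75, with a mean of 0.92 ± 0.24 (SD, n = 2) at percentile 87.2. In ΔLEO1 cells SOX11 was at 1.31 in 10% serum (percentile 93.0) and at 0.78 and 0.24 in 0.1% serum, with a mean of 0.51 ± 0.39 (SD, n = 2, percentile 70.3). SOX11 was above its input in every library. Wild type in 10% serum did not overlap with any other condition, in a gene chosen by these values. The small SD of that pair is less than the counting error of 44 and 52 reads.

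Against the other members, SOX11 exceeded the median of the other 9 principal windows by 2.18 ± 0.08 on the log2 scale (SD, n = 2) in wild type in 10% serum. The principal window is the one most listed transcripts of a gene share. The difference was 0.81 ± 0.06 (SD, n = 2) in wild type in 0.1% serum, 1.31 in the ΔLEO1 library from 10% serum and 0.54 ± 0.08 (SD, n = 2) in ΔLEO1 in 0.1% serum. SOX11 ranked first of the 10 genes in both wild type libraries from 10% serum, first and second in wild type in 0.1% serum, second in ΔLEO1 in 10% serum, and in places 2 and 5 in ΔLEO1 in 0.1% serum. The gene nearest to it was SOX5 in wild type in 10% serum (1.65 and 1.46). Where SOX11 did not rank first, SOX17 or SOX2 did.

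**Figure D2:**
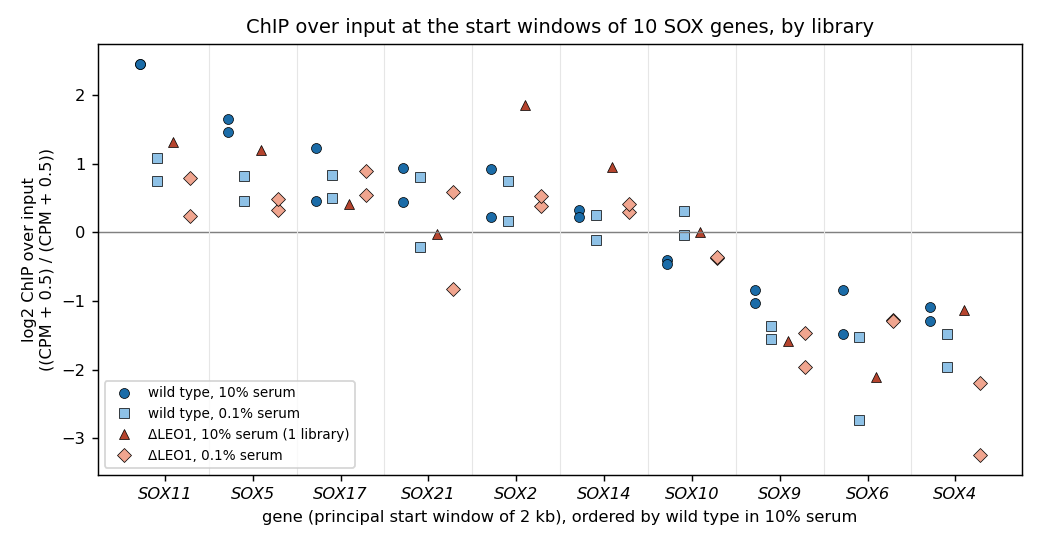
Log2 ChIP over input at the principal start window of each of the 10 SOX genes, 1 symbol per ChIP library, with colour and shape for the condition and 0 marking equal ChIP and input. SOX11 is at 2.46 in both wild type libraries from 10% serum, above all other genes, while SOX9, SOX6 and SOX4 lie below 0 in every library.

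The edgeR log2 fold changes of ChIP counts at SOX11, given as estimates with their standard errors, were -1.39 ± 0.27 for 0.1% against 10% serum in wild type, -1.47 ± 0.39 for ΔLEO1 against wild type in 10% serum and -0.61 ± 0.39 for ΔLEO1 against wild type in 0.1% serum. In ΔLEO1 cells the serum change was -0.54 ± 0.53, and the difference between the serum changes of the genotypes was 0.86 ± 0.59. The change with serum in wild type was -1.57 without the wild type ChIP library A from 0.1% serum and -1.51 with DESeq2.

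The windows around SOX11 were compared with it by their ChIP over input. Within 500 kb of its start lay 30 further distinct windows. Of these, 3 overlapped the SOX11 window and share reads with it: they belong to LINC01248 and ENSG00000230090, both on the opposite strand. They stood at 1.84 to 2.28 in wild type in 10% serum, and their ChIP over input differed by -1.23 to -0.55 in 0.1% serum and by -1.84 to -1.28 in ΔLEO1 in 10% serum. In 10% serum all 3 thus differed between the genotypes by more than SOX11 did in ChIP over input. In edgeR fold changes of ChIP counts they differed by less than SOX11, at -1.15 to -0.91. The start of LINC01248 lies 0.896 kb away, so these values rest largely on the same reads as SOX11 and are given without a test.

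The 27 windows that do not overlap SOX11 belong to 7 genes and were also above input, at 1.13 to 2.07 in wild type in 10% serum. From 10% to 0.1% serum in wild type they differed by -1.10 to 0.40 with a median of -0.64, where SOX11 differed by -1.54. Between ΔLEO1 and wild type in 10% serum they differed by -0.42 to 0.97 with a median of 0.06, where SOX11 differed by -1.14. In both comparisons all 27 differed by less than SOX11. As SOX11 was chosen by its differences across serum and genotype, this order is a description and was not tested. The values of ΔLEO1 in 10% serum rest on 1 library. For serum in wild type, 0 of the 27 were called by edgeR or by DESeq2, and 15 had an unadjusted p under 0.05 by edgeR, as had 9.40% of all windows. Many of the 27 are overlapping starts of 1 gene. The nearest of them, a start of ENSG00000242540 at 3.836 kb, stood at 2.07 in wild type and 1.87 in ΔLEO1 in 10% serum, and at 1.68 and 1.17 in 0.1% serum. A second start of that gene, at 9.081 kb, stood at 1.50, 1.59, 0.66 and 0.84 in the same order. In ΔLEO1 in 10% serum SOX11 and the 3 windows that overlap it were thus below wild type by over 1 log2 unit in ChIP over input, which none of the other 27 was. In ChIP counts not all of the 3 reached 1 log2 unit, and the 27 ran from -0.32 to 0.55.

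Between the genotypes in 0.1% serum SOX11 was not the window that differed most in ChIP over input. It differed by -0.41, and 16 of the 27 windows and all 3 overlapping ones differed by more in size. The 27 ran from -0.55 to 0.74 with a median of 0.43, so over input most were higher in ΔLEO1. The 3 ran from -0.84 to -0.59. In edgeR fold changes of ChIP counts the picture differed. There the 27 ran from -0.58 to 0.48, all smaller in size than the SOX11 estimate given above, and the 3 ran from -0.76 to -0.63. Over input, SOX11 differed by -0.80 with serum in ΔLEO1. The 27 ran from -1.05 to 0.08 with a median of -0.37, with 3 of them differing by more than SOX11.

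**Figure D3:**
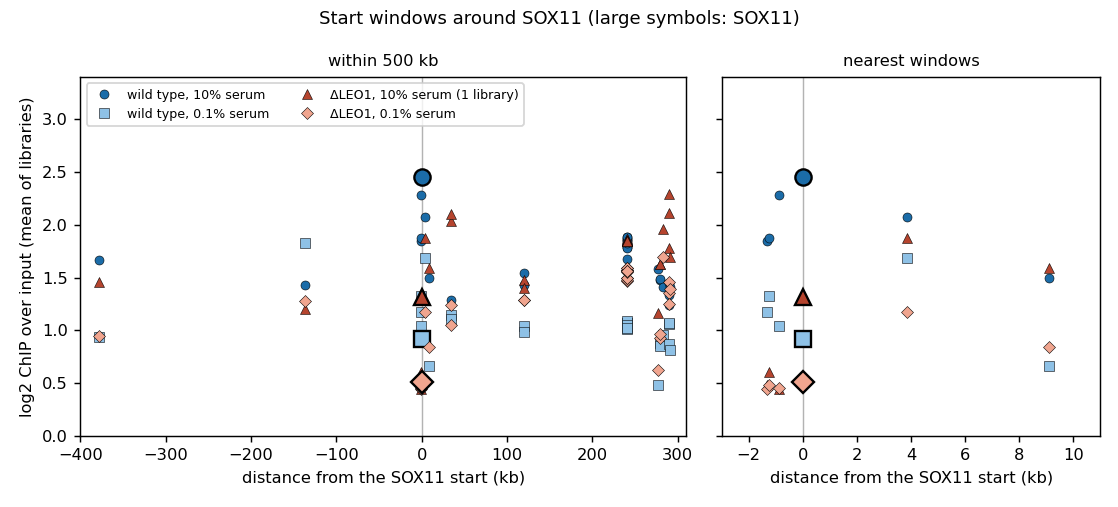
Mean log2 ChIP over input of the start windows around SOX11 against their distance from its start in kb, within 500 kb (left) and for the nearest windows (right), with large outlined symbols for SOX11 and colours for the 4 conditions. SOX11 is the highest point in wild type in 10% serum (2.46), and the window at 3.836 kb stays at 1.87 in ΔLEO1 in 10% serum where SOX11 is at 1.31.

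The deposited peak regions did not mark SOX11: 8 lay within 500 kb, and none of the 16092 was assigned to it. Peak regions were assigned to 4 members, with 5 at SOX5, 4 at SOX14, 3 at SOX9 and 2 at SOX6. All 14 lay away from the start windows, mostly in repeats or between genes. Their log2 ChIP over input was 1.24 to 2.39 in wild type in 10% serum, with a median of 1.99 beside 1.95 over all peak regions, which were chosen for their ChIP signal. SOX9 shows the contrast: its 3 regions, 37.9 to 59.9 kb from the start, were at 1.75 to 2.20, and its start window was at -0.93.

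Of the SoxB genes, SOX2 had 16 and 11 reads in wild type in 10% serum, 19 and 10 in wild type in 0.1% serum, 18 in ΔLEO1 in 10% serum, and 16 and 12 in ΔLEO1 in 0.1% serum. Its log2 ChIP over input was 0.93 and 0.22, then 0.75 and 0.17, then 1.86, then 0.39 and 0.53, so that the single ΔLEO1 library from 10% serum was the highest and the other 3 conditions overlapped. There SOX2 ChIP exceeded its input by 1.93 ± 0.51 (edgeR log2 fold change and SE, adjusted p = 0.000882), and in wild type in 10% serum by 0.75 ± 0.39 (adjusted p = 0.0534). The difference between these ChIP groups was 0.75 ± 0.46 with an adjusted p of 0.648 by edgeR, so it was not called. SOX2, then, was above SOX11 in the 1 library where SOX11 was at 1.31. The SOX2 inputs of that condition were the lowest, with a mean of 1.96 CPM beside 2.97 to 3.22 CPM in the others. The SOX2 ChIP of that library, 8.42 CPM, was also the highest.

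SOX14 was close to its input, with log2 values of 0.33 and 0.22 in wild type in 10% serum, 0.26 and -0.11 in wild type in 0.1% serum, 0.95 in ΔLEO1 in 10% serum, and 0.30 and 0.41 in ΔLEO1 in 0.1% serum. It passed the test against input in none of the 4 conditions. SOX21 spread more, with 16 and 13 reads in wild type in 10% serum, 14 and 5 in wild type in 0.1% serum, 6 in ΔLEO1 in 10% serum, and 11 and 2 in ΔLEO1 in 0.1% serum. Libraries A and B of 0.1% serum differed in both genotypes, and the 2 genotypes overlapped. SOX21 passed the test against input in wild type in 10% serum alone (log2 fold change 0.85 ± 0.39, edgeR, adjusted p = 0.0303), and its difference between sera in wild type, -0.59 ± 0.44, had an adjusted p of 0.64.

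SOX4, the SoxC relative of SOX11, was at the opposite end of the range of principal windows in wild type in 10% serum, overlapping with SOX6. It had 5 and 7 ChIP reads in wild type in 10% serum, 3 and 4 in wild type in 0.1% serum, 4 in ΔLEO1 in 10% serum, and 2 and 0 in ΔLEO1 in 0.1% serum, against 15 to 42 reads in the inputs. A count of 0 in that library allows up to 3 reads, or 1.19 CPM. The log2 ChIP over input was -1.29 and -1.09, then -1.97 and -1.48, then -1.13, then -2.20 and -3.25 in that order. ChIP fell below input in wild type in 10% serum (edgeR log2 fold change -1.01 ± 0.43, adjusted p = 0.0182), in wild type in 0.1% serum (-1.70 ± 0.50, adjusted p = 0.000417) and in ΔLEO1 in 0.1% serum (-2.68 ± 0.70, adjusted p = 4.35e-06). Its ChIP counts were too low for the tests between conditions. The 2 SoxC genes thus differed by 3.65 log2 units in wild type in 10% serum.

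The principal windows of the SoxE genes were near or below input. SOX9, which many mesenchymal cells express, had 2 to 7 ChIP reads per library and log2 values of -1.03 and -0.83 in wild type in 10% serum, -1.56 and -1.37 in wild type in 0.1% serum, -1.59 in ΔLEO1 in 10% serum, and -1.46 and -1.97 in ΔLEO1 in 0.1% serum. It was below 0 in all 7 libraries and below input by the test in both genotypes in 0.1% serum (adjusted p = 0.00539 in wild type and 0.000889 in ΔLEO1, edgeR). Like SOX4, it had too few ChIP reads to be compared between conditions.

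SOX10, the neural crest factor, has 9 start windows in 2 regions over 9391 bp. Its principal window was at -0.40 and -0.47 in wild type in 10% serum, 0.32 and -0.04 in wild type in 0.1% serum, 0.00 in ΔLEO1 in 10% serum, and -0.38 and -0.36 in ΔLEO1 in 0.1% serum. Over input, wild type in 0.1% serum held the highest library and overlapped only with the ΔLEO1 library from 10% serum. In ChIP CPM it overlapped with ΔLEO1 in 0.1% serum too, at 4.83 and 3.68 beside 4.26 and 4.35. The ΔLEO1 inputs from 0.1% serum were uneven, at 6.94 and 4.47 CPM. The difference between the sera in wild type was not called (edgeR log2 fold change 0.45 ± 0.46, adjusted p = 0.757). Among the other 8 windows, that at 37982414 to 37984414 on chr22 was highest, at 1.07 in wild type in 10% serum, and the rest were between -0.40 and 0.11.

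SOX17 was above input throughout, with 24 and 16 reads in wild type in 10% serum, 18 and 19 in wild type in 0.1% serum, 13 in ΔLEO1 in 10% serum, and 25 and 13 in ΔLEO1 in 0.1% serum. The log2 values were 1.23 and 0.45, 0.50 and 0.83, 0.41, and 0.89 and 0.54, and the conditions overlapped except for the single ΔLEO1 library from 10% serum, which was the lowest. In ChIP CPM that library, at 6.08, lay within the range of each other condition, and its inputs were uneven, at 5.63 and 3.30 CPM. ChIP rose above input in wild type in 10% serum (edgeR log2 fold change 1.08 ± 0.33, adjusted p = 0.00156), in wild type in 0.1% serum (0.78 ± 0.34, adjusted p = 0.0275) and in ΔLEO1 in 0.1% serum (0.88 ± 0.34, adjusted p = 0.0129). Its serum change in wild type was -0.17 ± 0.34 (edgeR, adjusted p = 0.90).

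SOX5, of the SoxD pair, has 20 distinct windows in 8 regions over 977932 bp on chr12. The 14 internal windows were above input, between 0.83 and 1.75 in wild type in 10% serum with a median of 1.35. Their medians were 0.69 in wild type in 0.1% serum, 1.04 in ΔLEO1 in 10% serum and 0.95 in ΔLEO1 in 0.1% serum. In wild type all 14 had a higher mean input in 0.1% than in 10% serum, which lowers the ratio. At chr12:23943352-23945352 the inputs were 2.79 CPM in 10% and 4.64 CPM in 0.1% serum. Mean ChIP CPM of 0.1% over 10% serum ran from 0.67-fold to 1.28-fold over the 14 windows. The principal window, chr12:23737506-23739506 on the minus strand, held 30 and 31 reads in wild type in 10% serum, 27 and 17 in wild type in 0.1% serum, 26 in ΔLEO1 in 10% serum, and 21 and 16 in ΔLEO1 in 0.1% serum. Its log2 ChIP over input was 1.65 and 1.46, then 0.81 and 0.45, then 1.19, then 0.33 and 0.49. Over input, wild type in 10% serum was thus the highest, and 0.1% serum was lower in both genotypes. The ChIP itself was highest in the ΔLEO1 library from 10% serum, at 12.2 CPM beside 11.5 and 10.0 CPM in wild type, and the ΔLEO1 inputs there were uneven, at 6.89 and 3.18 CPM. The change with serum in wild type was -0.51 ± 0.29 (edgeR, adjusted p = 0.548), well short of a call.

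The 6 most upstream SOX5 windows, which overlap one another and hold the CG-rich stretch printed above, behaved differently from the internal ones. In ChIP these windows held 9 reads in library A and 9 or 10 in library B of wild type in 10% serum, 7 to 9 and 3 or 4 in wild type in 0.1% serum, 4 to 6 in ΔLEO1 in 10% serum, and 19 to 21 and 18 in ΔLEO1 in 0.1% serum. Mean log2 ChIP over input was -0.27 to -0.12, -0.88 to -0.71, -0.46 to -0.18 and 0.86 to 0.95 in that order, so ΔLEO1 in 0.1% serum was the highest and overlapped with no other condition. Between genotypes in 0.1% serum the edgeR log2 fold changes were 1.33 to 1.42 with adjusted p from 0.0526 to 0.0726, which did not pass the threshold. The largest, 1.42 ± 0.46, was at chr12:24561449-24563449. As these windows share their reads, they amount to 1 measurement. With repeated coordinates counted once 1 of them was called, and with library sizes from the peak regions all 6 were.

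SOX6 has 17 distinct windows in 13 regions over 724264 bp on chr11. The upstream starts had a lower median than the internal ones. The 4 windows called upstream here lie up to 133.6 kb downstream of the most upstream start, and the 13 called internal lie 263.2 kb or more from it. The 4 were between -2.44 and 0.25 in wild type in 10% serum, with a median of -1.47. The most upstream window was the one at 0.25, and that at 133.6 kb was the lowest. The 13 internal windows were between -0.33 and 0.97, with a median of 0.57. In ΔLEO1 in 0.1% serum the same sets had medians of -1.78 and 0.38. The principal window, chr11:16737643-16739643 on the minus strand, held 6 and 4 reads in wild type in 10% serum, 5 and 1 in wild type in 0.1% serum, 2 in ΔLEO1 in 10% serum, and 6 and 4 in ΔLEO1 in 0.1% serum. ChIP there was below input in all 4 conditions (edgeR log2 fold changes -0.99, -1.94, -2.04 and -1.18, adjusted p = 0.0307, 8.4e-05, 0.0197 and 0.0097). The window of the internal start printed above, at 16401863 to 16403863, held 25 and 22, 20 and 22, 17, and 39 and 14 reads in the same order, and libraries A and B of ΔLEO1 in 0.1% serum spanned all the others.

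**Figure D4:**
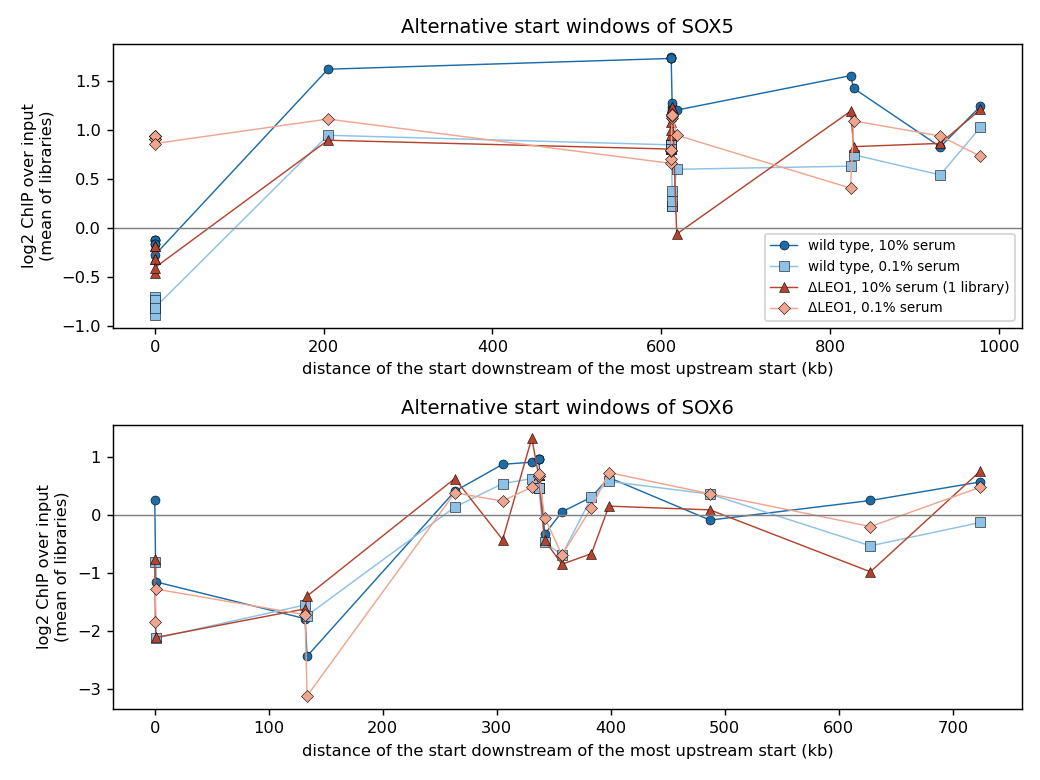
Mean log2 ChIP over input of every distinct start window of SOX5 (top) and SOX6 (bottom) against its distance in kb downstream of the most upstream start, with colours for the 4 conditions. The most upstream starts of SOX5 are below 0 except in ΔLEO1 in 0.1% serum (0.86 to 0.95), and the 4 upstream starts of SOX6 have a lower median than the internal ones.

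Across the 53 windows, ChIP was higher than input in 25 and lower in 4 in wild type in 10% serum, where 29.5% of all windows were called higher and 29.1% lower. The counts were 14 and 5 in wild type in 0.1% serum (25.7% and 28.0%), 9 and 1 in ΔLEO1 in 10% serum (15.4% and 11.3%), and 26 and 6 in ΔLEO1 in 0.1% serum (27.0% and 28.7%), all by edgeR with Benjamini-Hochberg adjustment. The median log2 fold change of ChIP over input was 0.62 over the members and -0.04 over all windows in wild type in 10% serum. It was 0.33 and -0.02 in wild type in 0.1% serum, 0.31 and -0.08 in ΔLEO1 in 10% serum, and 0.64 and 0.01 in ΔLEO1 in 0.1% serum. SOX11 is 1 of the windows called higher in the first 3 of these conditions, and nothing is read from its part in the counts. Most of the windows called higher are starts of SOX5 and SOX6 that share reads or lie in 1 gene. Without the wild type ChIP library A from 0.1% serum, 5 windows instead of 19 were called there, and without the ΔLEO1 ChIP library A or B from 0.1% serum, 20 or 18 instead of 32. DESeq2 called 18, 6, 2 and 12 member windows in the 4 conditions.

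Between conditions the members other than SOX11 gave no calls. Of 53 windows, 47 in 8 genes had enough ChIP reads to be tested, with SOX4, SOX9, 3 windows of SOX6 and 1 of SOX10 left out, and 46 of these belong to the other genes. Between the genotypes in 0.1% serum, 0 of the 46 were called by edgeR (0.347% of all windows) and by DESeq2, and 6, the overlapping SOX5 windows, had an unadjusted p under 0.05 (10.7% of all windows). Between them in 10% serum, 0 were called by edgeR (0.0295% of all windows) and by DESeq2, and 0 had an unadjusted p under 0.05 (8.39%). For serum in wild type, 0 were called by edgeR (0.270% of all windows, with 0.197% called lower in 0.1% serum) and by DESeq2, and 2 had an unadjusted p under 0.05 (9.40%). For serum in ΔLEO1, 0 were called by either tool (0.0633% by edgeR) and 6 had an unadjusted p under 0.05 (9.27%). For the interaction the counts were 0, 0 and 6, beside 0% of all windows called by edgeR and 5.65% with an unadjusted p under 0.05.

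Leaving SOX11 out, the serum change in wild type ran from -0.76 at a SOX6 start to 0.45 at SOX10 over the other 46 tested windows, with a median of -0.29 beside 0.01 over all windows. It was below 0 in 37 and above 0 in 9, with a smallest adjusted p of 0.515 (edgeR). CPM did not overlap between the sera in 20 of the 47 windows, SOX11 included, on the lower side and 3 on the higher side, beside 19.3% and 20.3% of all windows. Of the genes among the 20, SOX5 had the most windows, 11, and most of these overlap one another. Windows that overlap share reads, so these counts and those of windows below and above 0 are not counts of separate measurements. For ΔLEO1 against wild type in 0.1% serum, 14 windows were apart on the higher side and 12 on the lower (20.0% and 21.0% of all windows), and in 10% serum 8 and 22 (35.8% and 36.4%). In the inputs, ΔLEO1 against wild type over both sera gave 0 calls among the 53 windows by edgeR and by DESeq2 (0.0176% of all windows), with 1 unadjusted p under 0.05 (5.63%).

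Over all promoters ChIP was lower where CG dinucleotides were more frequent, and the SOX genes followed this only in part. For 26218 RefSeq promoters within 200 bp of a start in the table, the median log2 ChIP over input in wild type in 10% serum was 0.51 with 0 to 4 CG, -0.14 with 5 to 9, -0.74 with 10 to 19, -1.09 with 20 to 29 and -1.31 with 30 to 67. SOX6 went along with this, as its CG-free internal starts were above input and its start with 17 CG was at -1.16. SOX2, with 20 CG and 0.57, and SOX21, with 11 CG and 0.69, were above the medians of their classes by more than 1 log2 unit. SOX4, with 8 CG and -1.19, was below. All of these lay within the 10th to 90th percentile of their class, as did the most upstream SOX5 start, with 27 CG and -0.12. Outside the list of 10, the SoxB genes SOX1 and SOX3 combined 31 CG with 1.97 and 17 CG with 2.47, above the 90th percentile of their classes. Both matched starts of SOX30 also lay above that percentile, with 12 CG and 1.20 and with 24 CG and 0.86. SOX12, of the SoxC group, combined 42 CG with -2.56, below the 10th percentile of its class.

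**Figure D5:**
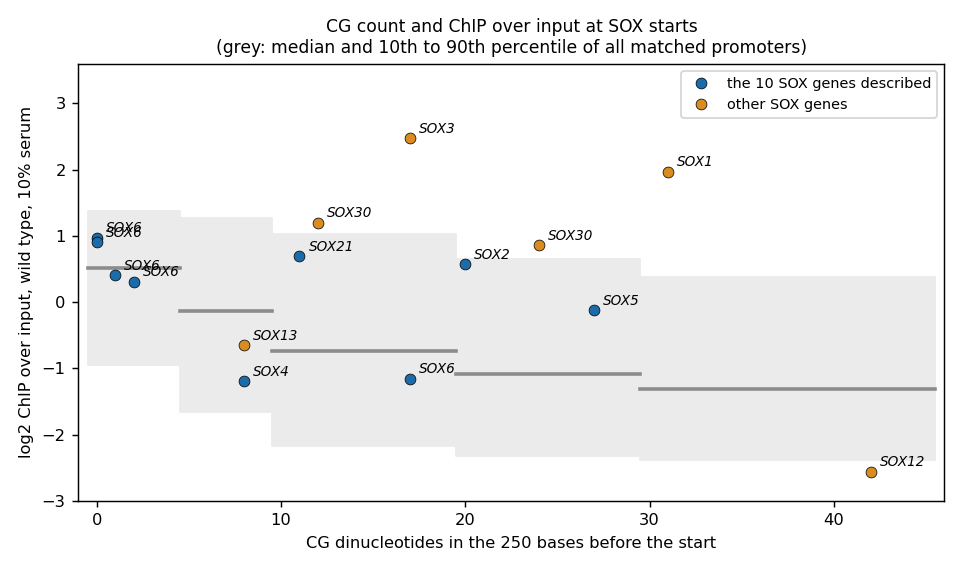
Mean log2 ChIP over input in wild type in 10% serum against the number of CG dinucleotides in the 250 bases before the start, for the SOX promoters matched to RefSeq (points), with grey bars and lines for the 10th to 90th percentile and the median of all matched promoters by CG class. SOX2 and SOX21 lie above their class medians and SOX4 below, all within the grey bars, while the CG-free SOX6 starts lie near 1.

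The 9 SOX genes outside the list (SOX1, SOX3, SOX7, SOX8, SOX12, SOX13, SOX15, SOX18 and SOX30) had 23 distinct windows. SOX3 and SOX1, both SoxB genes, stood highest among them in wild type in 10% serum, and SOX3 was level with SOX11. SOX3 had 18 and 27 reads in wild type in 10% serum, 9 and 8 in wild type in 0.1% serum, 10 in ΔLEO1 in 10% serum, and 16 and 7 in ΔLEO1 in 0.1% serum, with a log2 ChIP over input of 2.47, 0.63, 1.83 and 1.31 in that order, beside 2.46 at SOX11 in wild type in 10% serum. Its inputs held only 2 to 16 reads, too few for the set of windows ranked by percentile. Its serum change in wild type was -1.28 ± 0.40 (edgeR, adjusted p = 0.0597). SOX1 had 33 and 28, 15 and 16, 19, and 17 and 9 reads in the same order, and its serum change was -0.96 ± 0.32 (adjusted p = 0.135). Its input fell as well, from a mean of 2.35 to 1.29 CPM, so that over input SOX1 moved from 1.97 to 1.66. It stood at 2.40 in ΔLEO1 in 10% serum, its highest condition, and at 1.29 in ΔLEO1 in 0.1% serum. Neither serum change passed the threshold, although in both genes the wild type libraries of 10% serum had more reads than those of 0.1% serum.

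SOX30, a gene of the male germ line, was the SOX gene called between genotypes. Its 2 overlapping first-exon windows, at 157651364 and 157651438 on chr5, held 58 and 41 and 61 and 38 reads in wild type in 0.1% serum, and 34 and 18 and 35 and 19 in ΔLEO1 in 0.1% serum. ChIP was lower in ΔLEO1 by log2 fold changes of -0.93 ± 0.25 and -0.88 ± 0.24 (edgeR, adjusted p = 0.0318 and 0.0437), 2 of 11 windows tested beside 0.266% of all windows called lower. Both calls were lost with DESeq2, with library sizes from the peak regions (-0.64 and -0.59) and without any 1 of the 4 ChIP libraries of 0.1% serum, where the adjusted p ran from 0.0587 to 0.556. The third SOX30 window, at 157670480, differed by 0.05 ± 0.29.

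Of 14 genes known to act with or downstream of SOX factors (POU3F2, POU3F3, POU5F1, PAX3, PAX6, NEUROG1, NEUROG2, TUBB3, DCX, MITF, COL2A1, ACAN, SOX2-OT and TEAD2), 192 windows were tested between conditions. By edgeR and by DESeq2, 0 were called in each comparison, and 21 had an unadjusted p under 0.05 for serum in wild type (9.40% of all windows), 3 for genotype in 0.1% serum (10.7%) and 7 for genotype in 10% serum (8.39%). Against input, 97 of 221 windows were higher and 18 lower in wild type in 10% serum (29.5% and 29.1% of all windows). Among the principal windows DCX, a microtubule protein of migrating neurons, was highest at 1.23 and TUBB3, a neuronal tubulin, lowest at -1.73 in that condition. POU3F3, a neural POU factor, was highest in the other 3, at 0.91 in wild type in 0.1% serum and at 1.80 and 1.50 in ΔLEO1 in 10% and 0.1% serum.

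The genes whose ChIP ran most closely with SOX11 were RNU1-57P, TRIM61, LINC02714, MS4A14 and PCDHGA3, with Pearson r of log2 CPM from 0.978 to 0.987 over the 7 ChIP libraries. They were the top 5 of 22811 principal windows, of which 259, or 1.14%, had an r over 0.9. TRIM61, for example, was at 14.9 and 13.6 CPM in wild type in 10% serum, 8.16 and 7.72 in wild type in 0.1% serum, 7.49 in ΔLEO1 in 10% serum, and 6.40 and 5.93 in ΔLEO1 in 0.1% serum. Among SOX genes r with SOX11 was 0.84 for SOX3 and SOX1, 0.69 for SOX5, 0.35 for SOX17, -0.02 for SOX2 and -0.80 for SOX10. With 7 libraries in 4 conditions these values describe the order of the libraries and no more.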

How the data were processed

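Raw read counts were used as the authors deposited them, in a table of 2 kb windows around annotated transcription start sites and a table of peak regions. The submitters' processing notes name bcl2fastq 2.20.0.422, STAR 2.7.10a, HOMER and the builds hg38 and dm6, and the methods describe counting with csaw and a fly chromatin spike-in. Spike-in scaling was not used here. Coordinates are those of the files (hg38, chromosome, start and end). All 16 libraries had a column of counts, and 0 columns could not be assigned to a sample. In R 4.3.3, edgeR 4.0.16 was run with TMM scaling of library totals, filterByExpr (minimum count 10), a prior count of 2 and quasi-likelihood tests, two-sided, with Benjamini-Hochberg adjustment over all listed windows tested. Windows with an adjusted p under 0.05 were called. The 7 ChIP libraries were fitted together with 1 coefficient per condition, and 15 libraries for ChIP over input. The code was tested on simulated data. Levels are CPM, with 0.5 CPM added before log2 ratios, and 95% Poisson intervals cover counting error only.

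All 10 genes were named, each distinct window once. The principal window of a gene was the one shared by most listed transcripts, then the one with more input reads, then the lower start. Neighbours were windows of other genes within 500 kb of SOX11. The genes most like SOX11 were the 5 with the highest Pearson r over principal windows with at least 10 reads per ChIP library on average. The members and the gene lists were chosen with earlier results of these data known. Alternatives were library totals without TMM, no filter, a block for the library letter, distinct windows only, DESeq2 1.42.0, library sizes from the peak regions, other pseudocounts and inputs, and leaving out each library in turn.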

Additional observations from a re-analysis of the deposited data

How the results depend on the processing

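Library sizes taken from the peak regions moved the median of all windows by 0.27 for genotype in 0.1% serum, 0.17 for genotype in 10% serum, 0.14 for serum in wild type and 0.24 for serum in ΔLEO1, and with them 6 SOX member windows (the upstream SOX5 starts) and 0 of the other SOX windows were called for genotype in 0.1% serum, in place of 0 and 2. With distinct windows only, 1 member window was called there. The 2 SOX30 windows became 1 without TMM, 1 without the filter and 0 with DESeq2, and leaving out a library gave 0 to 2, with 0 without either wild type or either ΔLEO1 ChIP library from 0.1% serum and 1 without the ΔLEO1 ChIP library B from 10% serum. For serum in wild type, the 1 member window called was SOX11 itself, which was chosen by this difference, so nothing is read from the call. The count became 0 with DESeq2 and 0 to 1 on leaving out a library, 0 without the wild type ChIP library A from 0.1% serum. The cause was not tested.

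For ChIP over input, DESeq2 called 18 member windows in wild type in 10% serum (29 by edgeR). In wild type in 0.1% serum it called 6 member (19) and 48 partner windows (85), in ΔLEO1 in 10% serum 2 member (10), 0 other SOX (7) and 11 partner windows (53), and in ΔLEO1 in 0.1% serum 12 member (32), 7 other SOX (11) and 50 partner windows (110). Leaving out a library gave 5 to 24 member and 51 to 90 partner windows in wild type in 0.1% serum, the lowest without its ChIP library A. It gave 3 to 9 other SOX windows in ΔLEO1 in 10% serum, the lowest without its input library B, and 18 to 32 member, 6 to 11 other SOX and 46 to 121 partner windows in ΔLEO1 in 0.1% serum.

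The excess of SOX11 over the median of the other 9 genes (2.18, 0.81, 1.31 and 0.54 in wild type in 10% and 0.1% serum and ΔLEO1 in 10% and 0.1% serum) kept its sign under every setting tried. It was 2.04, 0.73 and 1.16 in the first 3 with a pseudocount of 1 CPM and 2.32, 0.89 and 1.47 with 0.1 CPM. With the input of the same letter it was 1.00 and 0.35 in ΔLEO1, with the mean of all 8 inputs 1.07 in wild type in 0.1% serum and 0.90 and 0.32 in ΔLEO1, and with the median over all windows of each gene 0.71 and 0.31 in 0.1% serum. Leaving out a library gave 2.13 to 2.24, 0.77 to 0.86 and 0.48 to 0.60 in the 3 conditions with 2 libraries.

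With a replicate block for the letters A and B, 29, 20, 12 and 31 member windows were called over input in wild type in 10% and 0.1% serum and ΔLEO1 in 10% and 0.1% serum, and no count moved by over 1.5 times. The letters were not taken as pairs because the study's methods state no pairing. Differences between A and B did not run together across conditions (correlations of -0.00018 to 0.0179 in ChIP and 0.0118 to 0.109 in input). At 0 to 52 ChIP reads per principal window and library, counting error limits every value.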
